A study of Mus musculus with 8 samples.

Results

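A set of 7 genes that mark disease-associated microglia was followed in a comparison of H3K27ac between GrnKO and wild-type (WT) mouse microglial nuclei: Spp1, Itgax, Clec7a, Cst7, Lgals3, Csf1 and Ank. They encode secreted or surface proteins, and the regions analysed were all those of the deposited table that carry their gene name. The table assigned 76 of its 129304 regions to the 7 genes, of 18707 gene names in all. Ank had 20 regions, Csf1 19, Lgals3 10, Itgax 9, Spp1 8, Clec7a 6 and Cst7 4. Each region is 800 bp wide and was called from chromatin accessibility, not from H3K27ac.

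H3K27ac, acetylation of histone H3 at lysine 27, marks active promoters and enhancers and was read out by ChIP-seq, the sequencing of DNA pulled down with an antibody to the mark. The WT and GrnKO groups were C57BL/6 mice aged 2 years, and GrnKO mice lack a functional Grn, the gene of progranulin, a secreted protein that is delivered to lysosomes. The kind of Grn allele is not given in the sources used here. Nuclei from brain were sorted as PU.1 positive, OLIG2 negative and NEUN negative, a gate for myeloid cells without oligodendrocyte-lineage and neuronal nuclei. Each genotype had 2 replicates, each a pool of 2 mice, and an H3K27ac library and an input library of unselected chromatin were sequenced for each.

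Microglia are the resident macrophages of the brain. Near plaques, in demyelination and in ageing, a share of them lowers homeostatic genes and raises a programme of lipid, lysosomal and adhesion genes that is known as the disease-associated state. The 7 genes belong to the secreted and cell-surface side of this programme. A change of H3K27ac at a gene describes its chromatin and is not a measurement of its RNA or protein.

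The H3K27ac libraries were of similar depth: the WT pair held 15491642.5 and 18433104 tags, and the GrnKO pair 16348961.5 and 20030832. Of these tags, 49.4% lay in the listed regions in WT replicate 1, against 63.3% to 65.7% in the other 3 libraries. Values are given as normalised tags, the tags per 10000000 divided by a scaling factor (TMM) that offsets this difference. The targeted gene was checked on its own 10 regions. Grn had 2291 and 1871 normalised tags in WT and 157 and 162 in GrnKO, which matched the labels. In the same libraries, 6 of 8 microglial identity genes were lower in GrnKO and none was higher. Of all tested genes, 5.88% were lower and 8.6% higher (limma adjusted p under 0.05). The 8 genes summed to 46782 and 51106 normalised tags in WT and 37828 and 40071 in GrnKO. These lower calls hold under TMM: in the authors' scaling none of the 8 was called. The sum over 7 border macrophage genes ranged from 3445 to 3467 in WT and from 3531 to 3606 in GrnKO. Dendritic cell genes (6) summed to 2726 and 2976 in WT against 2059 and 2236 in GrnKO, with 3 lower, and those over 5 monocyte genes were 691 and 640 against 507 and 421, with Ccr2 lower. The 5 neutrophil genes summed to 43 to 59 in all 4 libraries, with S100a8 higher. The B cell sum was 233 and 203 in WT and 612 and 464 in GrnKO, and Ms4a1 gave nearly all of it, while Pax5 was near 0 in all 4 libraries. The sum over 6 oligodendrocyte genes was 1988 and 1996 in WT and 2502 and 2644 in GrnKO, with Mbp higher and Mog lower, and Mobp was near 0. The T and NK cell sum ranged from 145 to 214 over the 4 libraries, the neuron sum from 149 to 272 with Syt1 lower, and the astrocyte sum from 3160 to 3471, of which Slc1a3 gave most. No marker gene was at 0 in all 4 libraries. The part of these markers in the results below was not tested, and a change in the share of nuclei that carry a mark cannot be told apart from a change in each nucleus.

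The DNA before 4 of the start sites is shown because Lgals3 and Cst7 had the largest changes in the sum of their regions within 1000 bp of a start site, and Itgax and Spp1 carried the motif matches. Each run is the 250 bases upstream of a RefSeq start site on the GRCm38.p6 build, 5′ to 3′ on the gene's strand, which is the plus strand for all 4. Capitals mark a motif match.
Lgals3, chr14:47373610-47373859: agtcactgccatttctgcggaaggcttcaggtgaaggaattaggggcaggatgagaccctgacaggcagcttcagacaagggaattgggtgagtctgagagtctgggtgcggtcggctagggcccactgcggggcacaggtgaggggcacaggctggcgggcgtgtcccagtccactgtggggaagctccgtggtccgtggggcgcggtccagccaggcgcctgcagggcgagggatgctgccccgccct
Cst7, chr2:150570165-150570414: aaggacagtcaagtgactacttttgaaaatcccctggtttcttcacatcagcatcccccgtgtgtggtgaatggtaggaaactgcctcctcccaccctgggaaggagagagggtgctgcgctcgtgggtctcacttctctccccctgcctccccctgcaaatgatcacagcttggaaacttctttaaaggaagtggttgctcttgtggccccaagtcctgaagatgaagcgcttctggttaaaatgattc
Itgax, chr7:128129300-128129549: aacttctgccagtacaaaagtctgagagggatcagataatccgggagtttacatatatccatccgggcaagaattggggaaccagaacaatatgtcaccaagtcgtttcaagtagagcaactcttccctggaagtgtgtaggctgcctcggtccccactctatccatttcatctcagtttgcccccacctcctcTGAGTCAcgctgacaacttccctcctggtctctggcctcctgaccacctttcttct
Spp1, chr5:104434861-104435110: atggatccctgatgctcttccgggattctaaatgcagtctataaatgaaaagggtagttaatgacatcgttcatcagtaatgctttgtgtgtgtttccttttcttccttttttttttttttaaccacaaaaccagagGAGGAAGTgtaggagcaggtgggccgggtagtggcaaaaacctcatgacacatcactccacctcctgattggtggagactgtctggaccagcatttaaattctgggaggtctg
The capitals in Itgax are an AP-1 motif (TGANTCA) that begins 56 bases before the start site, and those in Spp1 are a PU.1 motif (GAGGAAGT) that begins 113 bases before it. Both strands were searched. Of 27025 mouse promoters of the same length, 6.87% held the AP-1 letters and 2.44% the PU.1 letters. The E-box CACGTG, bound by the lysosomal regulators TFEB, TFE3 and MITF, was found in none of the 7 genes' windows and in 6.05% of all promoters. Its longer form TCACGTGA, which contains the shorter letters, was also in none of the 7 and in 0.803% of all. GC content was 66.0% in the Lgals3 window, with 13 CpG dinucleotides, and 81.2% in that of Ank, with 49. It was 51.6% in Cst7, 50.0% in Itgax, 56.4% in Csf1, 42.0% in Clec7a and 43.6% in the Spp1 window shown. These letters are a description of the windows and not of factor binding.

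Summed over each gene's regions, H3K27ac was higher in GrnKO for Lgals3, Clec7a, Cst7 and Csf1, by 1.44-fold to 1.84-fold. Itgax, Ank and Spp1 did not pass the test. Across all genes, 8.6% of 15380 tested were called higher and 5.88% lower at a limma adjusted p under 0.05, and 14.5% were called in either direction. In 6 of the 7, both GrnKO libraries were above both WT libraries (25.4% of all genes), and in none were both below (29.4% of all). None of the 7 was called lower, by limma, edgeR or DESeq2, and none was lower at an unadjusted p under 0.05. The median log2 change of the 7 genes was 0.53, against -0.05 over all genes. Without TMM, in the authors' scaling, these medians were 0.76 and 0.18, and the calls over all genes were 1629 higher and 166 lower in place of 1322 and 904. The count of 4 higher genes was 2 without GrnKO replicate 1, 2 without GrnKO replicate 2 and 3 without WT replicate 1. In fits with 1 GrnKO library, that library is assumed to vary like the WT pair, and the share of all genes called higher fell to 3.62% and 4.34%.

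**Figure D1:**
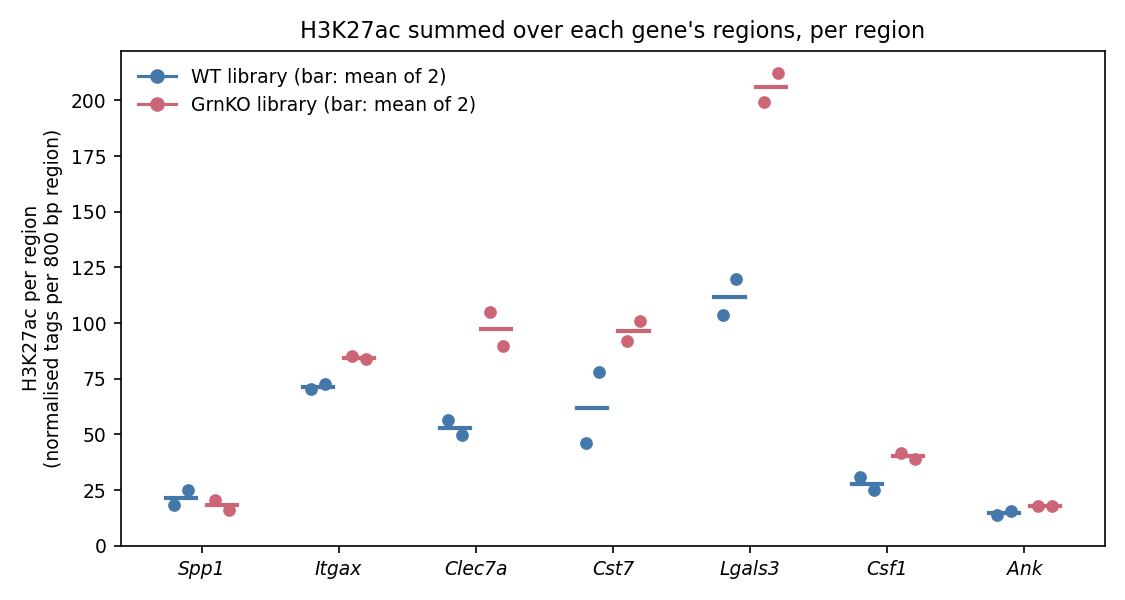
H3K27ac of each gene, summed over its regions and divided by their number, in normalised tags per 800 bp region. Points are the 2 WT and the 2 GrnKO libraries and bars are their means. The GrnKO points lie above the WT points in 6 of the 7 genes, and overlap with them in Spp1.

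Lgals3 encodes galectin-3, a secreted lectin that binds galactose-containing sugars and is recruited to damaged lysosomes. Its summed H3K27ac was 1036 and 1199 normalised tags in WT and 1993 and 2124 in GrnKO. Both GrnKO libraries were far above both WT libraries. The means were 1118 ± 115 in WT and 2059 ± 92.3 in GrnKO (SD, n = 2), a 1.84-fold difference (log2 change 0.88 ± 0.10 SE, limma adjusted p = 9.75e-05). Some of the 10 Lgals3 regions overlap each other. All 10 had both GrnKO libraries above both WT libraries (27% of all tested regions), and 9 were called higher (6.8% of all). Without GrnKO replicate 1 or without GrnKO replicate 2, no more than 3 of them were called, which was the count over all 7 genes.

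The largest change among the called regions of the 7 genes was at the Lgals3 start site. The region at chr14:47373454-47374254 (mm10), annotated as promoter, had 18.0 and 31.2 normalised tags in WT and 90.8 and 107.5 in GrnKO, a log2 change of 2.01 ± 0.32 (limma adjusted p = 0.000521). It overlaps the sequence printed above. The region after it in intron 1, chr14:47374135-47374935, had 47.7 and 47.1 in WT and 160.4 and 178.6 in GrnKO, with a log2 change of 1.81 ± 0.23 (limma adjusted p = 6.14e-05). In both, the lower GrnKO library was well over the higher WT library.

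The strongest Lgals3 signal lay upstream, in intergenic DNA at chr14:47361307-47362107, 12153 bp before the start site. It had 290.2 and 349 normalised tags in WT and 453 and 482 in GrnKO. That is a log2 change of 0.55 ± 0.14 (limma adjusted p = 0.0146), which was not called in the authors' scaling (limma adjusted p = 0.0710). This call was also lost without GrnKO replicate 1 or 2 (limma adjusted p = 0.176 or 0.249), while both start site regions kept theirs without any 1 library.

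Csf1 encodes macrophage colony-stimulating factor, a ligand of the receptor CSF1R on which microglia depend. Its sum was 582 and 478 normalised tags in WT and 791 and 738 in GrnKO, with no overlap. The means were 530.4 ± 73.4 and 765 ± 37.0 (SD, n = 2), a log2 change of 0.53 ± 0.13 SE (limma adjusted p = 0.0163). The call was lost without GrnKO replicate 1 (limma adjusted p = 0.201) and without GrnKO replicate 2 (0.0813).

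The called regions of Csf1 did not include its start site. The region nearest to it, chr3:107759943-107760743 (mm10), lies in the 5′ UTR and had the most signal of the gene. It held 139.6 and 104 normalised tags in WT and 126 and 116 in GrnKO, so that the GrnKO values lay between the WT values (log2 change 0.01 ± 0.21, limma adjusted p = 0.992). This overlap holds under TMM: in the authors' scaling the region had 115 and 108 scaled tags in WT and 137 and 126 in GrnKO, a log2 change of 0.23. Of 17 tested Csf1 regions, 3 were called higher (6.8% of all tested regions), and all 3 were distal. That with the smallest p, at chr3:107785029-107785829, lies in intergenic DNA 24960 bp upstream. It had 27.4 and 25.7 normalised tags in WT and 78.6 and 76.4 in GrnKO, a log2 change of 1.51 ± 0.30 (limma adjusted p = 0.00327), and it was not called without GrnKO replicate 1 or 2 (0.128 or 0.0931). The other 14 tested Csf1 regions were not called.

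**Figure D2:**
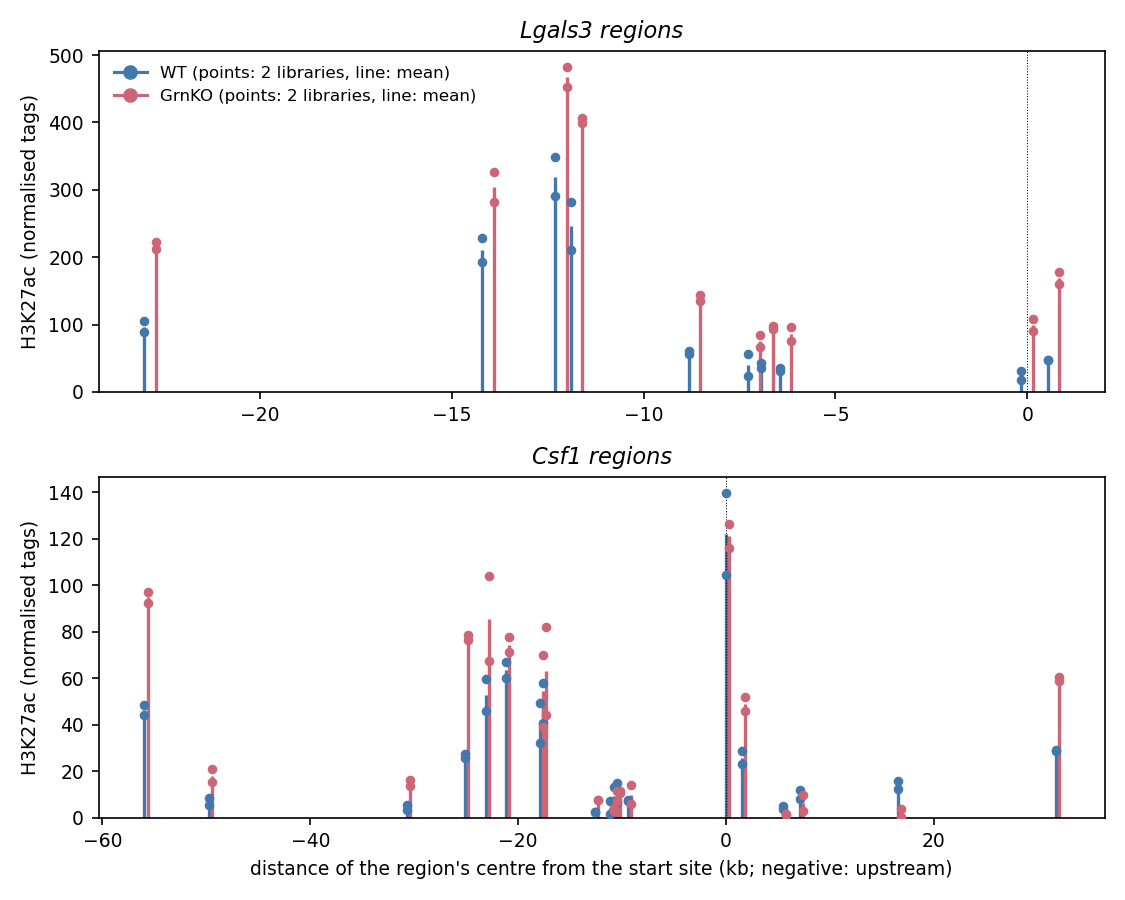
H3K27ac of every region of Lgals3 (upper panel) and Csf1 (lower panel), in normalised tags, against the distance of the region from the start site in kb. Lines are means, points are the 2 libraries of each genotype, and the genotypes are drawn slightly apart. In all 10 Lgals3 regions both GrnKO points lie above both WT points, and 9 of them passed the test; at the start site region of Csf1 the points overlap under TMM.

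Spp1 encodes osteopontin, a secreted phosphoprotein that binds integrins and CD44. Its sum was 146 and 199.6 normalised tags in WT and 164 and 127 in GrnKO, and the groups overlapped. The log2 change was -0.24 ± 0.22 SE (limma adjusted p = 0.554), and it was -0.46 without WT replicate 1 and -0.016 without WT replicate 2. Most of the signal was in 1 intergenic region, chr5:104425626-104426426 (mm10), which lies 9085 bp before the start site. This region had 110.3 and 135 normalised tags in WT and 121 and 75.2 in GrnKO (log2 change -0.35 ± 0.24, limma adjusted p = 0.406).

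The Spp1 start sites carried little H3K27ac. The region at chr5:104434647-104435447, over the sequence with the PU.1 letters, had 10.6 and 3.67 normalised tags in WT and 7.35 and 4.38 in GrnKO. Its groups overlapped, and its log2 change of -0.13 ± 0.81 had a limma adjusted p of 0.947. At the start site of another transcript, chr5:104435330-104436130 had 0 and 2.62 in the WT libraries, against 7.08 and 7.38 in GrnKO. The floor of 3 tags is 1.94 and 1.63 in WT and 1.83 and 1.50 in GrnKO, in the authors' scaling before the TMM factor, so that these levels are near the limit of detection. None of the 5 tested Spp1 regions was called, although the last one passed without WT replicate 2 (limma adjusted p = 0.0468).

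Clec7a encodes dectin-1, a C-type lectin receptor for beta-glucans that signals through SYK. Its sum was 338 and 298 normalised tags in WT and 629.9 and 537 in GrnKO. The means were 318 ± 28.3 and 583 ± 65.8 (SD, n = 2), a 1.83-fold difference without overlap (log2 change 0.87 ± 0.15 SE, limma adjusted p = 0.00144). Of its 6 regions, some of which overlap each other, 4 were called higher (6.8% of all tested regions). The smallest p was at chr6:129474298-129475098 (mm10), intergenic and 1919 bp upstream, with 26.6 and 38.8 normalised tags in WT and 100.1 and 82.6 in GrnKO (log2 change 1.47 ± 0.29, limma adjusted p = 0.00346). This call was lost without GrnKO replicate 1 or 2 (limma adjusted p = 0.162 or 0.0508).

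The Clec7a region with the most signal was in intron 1, at chr6:129471719-129472519. It had 96.2 and 71.8 normalised tags in WT and 139.7 and 133 in GrnKO (log2 change 0.71 ± 0.22, limma adjusted p = 0.0499), and the call was lost with DESeq2 (adjusted p = 0.0975). It was also lost without WT replicate 2 (limma adjusted p = 0.0981) and without GrnKO replicate 1 or 2 (0.416 or 0.292). The region over the start site, chr6:129472416-129473216, had 70.4 and 57.1 in WT and 119 and 88.4 in GrnKO. It was above WT in both GrnKO libraries and did not pass the test (log2 change 0.69 ± 0.25, limma adjusted p = 0.0936). It passed without WT replicate 1 (0.0169) and with a replicate block (0.0474).

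Itgax encodes integrin alpha X, or CD11c, which pairs with the beta-2 chain into complement receptor 4. Its sum was 632 and 652 normalised tags in WT and 767 and 755 in GrnKO. Both GrnKO values were above both WT values, by 1.19-fold in the means (642 ± 13.9 and 761 ± 8.43, SD, n = 2). The difference did not pass the test across all genes (log2 change 0.24 ± 0.12 SE, limma adjusted p = 0.200). The region with the highest level, chr7:128128572-128129372 (mm10), lies in the promoter. It had 148 and 175 normalised tags in WT and 227 and 225 in GrnKO (log2 change 0.49 ± 0.17, limma adjusted p = 0.0836). It passed the test without WT replicate 2, a fit whose spread comes from the GrnKO pair alone. The neighbouring region over the start site, chr7:128129110-128129910, had 163.9 and 159 in WT and 194 and 200.0 in GrnKO (log2 change 0.29 ± 0.17, limma adjusted p = 0.332). It holds the AP-1 letters. Of the 9 Itgax regions, 4 lie by annotation inside the neighbouring gene Itgam, which encodes integrin alpha M, so that the Itgax sum may carry signal of that gene.

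Cst7 encodes cystatin F, an endolysosomal inhibitor of cysteine cathepsins. Its sum was 185 and 311 normalised tags in WT and 368 and 403 in GrnKO, with WT replicate 1 far below WT replicate 2. The means were 248 ± 89.5 and 386 ± 25.3 (SD, n = 2), a log2 change of 0.68 ± 0.21 SE (limma adjusted p = 0.0472). This call was close to the threshold: edgeR gave an adjusted p of 0.0717, and without WT replicate 1 the log2 change was 0.31 (limma adjusted p = 0.203). Without GrnKO replicate 1 or 2 the limma adjusted p was 0.129 or 0.227.

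At the Cst7 start site the groups did not overlap. The promoter region chr2:150569932-150570732 (mm10), over the sequence printed above, had 37.9 and 50.0 normalised tags in WT and 89.9 and 103 in GrnKO. Its log2 change was 1.13 ± 0.27 (limma adjusted p = 0.0112), and it was the 1 Cst7 region called, though not without GrnKO replicate 1 or 2 (limma adjusted p = 0.138 or 0.226). The region with the most signal, chr2:150567305-150568105, is intergenic and 2710 bp upstream. It had 75.5 and 142 normalised tags in WT and 138 and 162 in GrnKO, and the groups overlapped (log2 change 0.52 ± 0.25, limma adjusted p = 0.212). Without WT replicate 2 the log2 change was 0.98 (limma adjusted p = 0.00111).

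Ank encodes a membrane protein that exports ATP and pyrophosphate and limits mineral deposition. Its sum was 278 and 309.6 normalised tags in WT and 359.8 and 356 in GrnKO. GrnKO was above WT in both libraries and the difference did not pass the test (log2 change 0.28 ± 0.15 SE, limma adjusted p = 0.257). The region with the most signal, in the 5′ UTR at chr15:27466550-27467350 (mm10), had 24.6 and 49.5 normalised tags in WT and 66.8 and 56.3 in GrnKO (log2 change 0.79 ± 0.34, limma adjusted p = 0.160). It passed without WT replicate 2 (log2 change 1.28), a fit whose spread comes from the GrnKO pair alone. The region over the start site, chr15:27466106-27466906, had 22.3 and 32.5 in WT and 35.6 and 46.4 in GrnKO (log2 change 0.58 ± 0.36, limma adjusted p = 0.356). The smallest p was for a change in the other direction, 126424 bp upstream at chr15:27339853-27340653, with 44.2 and 28.0 in WT and 14.1 and 16.4 in GrnKO (log2 change -1.16 ± 0.42, limma adjusted p = 0.0930). This region too passed without WT replicate 2 (log2 change -1.48).

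Levels between the genes were compared per 800 bp region. In WT nuclei Lgals3 had the highest level, at 111.8 normalised tags per region, followed by Itgax at 71.3, Cst7 at 62.0, Clec7a at 53.1, Csf1 at 27.9, Spp1 at 21.6 and Ank at 14.7. The WT range of Cst7, from 46.1 to 77.8, covered the values of Itgax and of Clec7a, which did not overlap each other. In GrnKO nuclei the levels per region were 205.9 for Lgals3, 97.2 for Clec7a, 96.4 for Cst7, 84.5 for Itgax, 40.2 for Csf1, 18.2 for Spp1 and 17.9 for Ank. Clec7a and Cst7 overlapped in these libraries, as did Spp1 and Ank.

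Region by region, 17 of the 64 tested regions of the 7 genes were higher in GrnKO and 47 were not called. Over all 80728 tested regions, 6.8% were called higher, 2.92% lower and 9.72% in either direction. In the authors' scaling the calls over all regions were 6583 higher and 333 lower, in place of 5488 and 2355, and 16 regions of the 7 genes were called higher. No region of the 7 genes was called lower by limma, edgeR or DESeq2. At an unadjusted p under 0.05, 2 were lower by limma, 3 by edgeR and 3 by DESeq2, and 26, 24 and 21 were higher. The 17 regions were 9 of Lgals3, 4 of Clec7a, 3 of Csf1 and 1 of Cst7, with log2 changes from 0.53 to 2.01. The regions not called had log2 changes from -2.48 to 2.11. The median log2 change of the 64 was 0.53, against -0.0020 over all regions.

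Some neighbouring regions share DNA: 59 of the 76 remained when overlaps were dropped, of which 48 were tested and 13 were called higher. Both GrnKO libraries were above both WT libraries in 37 of the 64 regions (27% of all tested regions), below them in 4 (25.6% of all) and overlapped in 23. The count of called regions was 3 without GrnKO replicate 1 and 3 without GrnKO replicate 2, where 1.41% and 1.81% of all regions were called higher. The count rose without either WT library, as did the share of all regions called higher. Such fits take their spread from the GrnKO pair alone. The 12 regions that were not tested had between 0 and 12.05 normalised tags in any library.

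**Figure D3:**
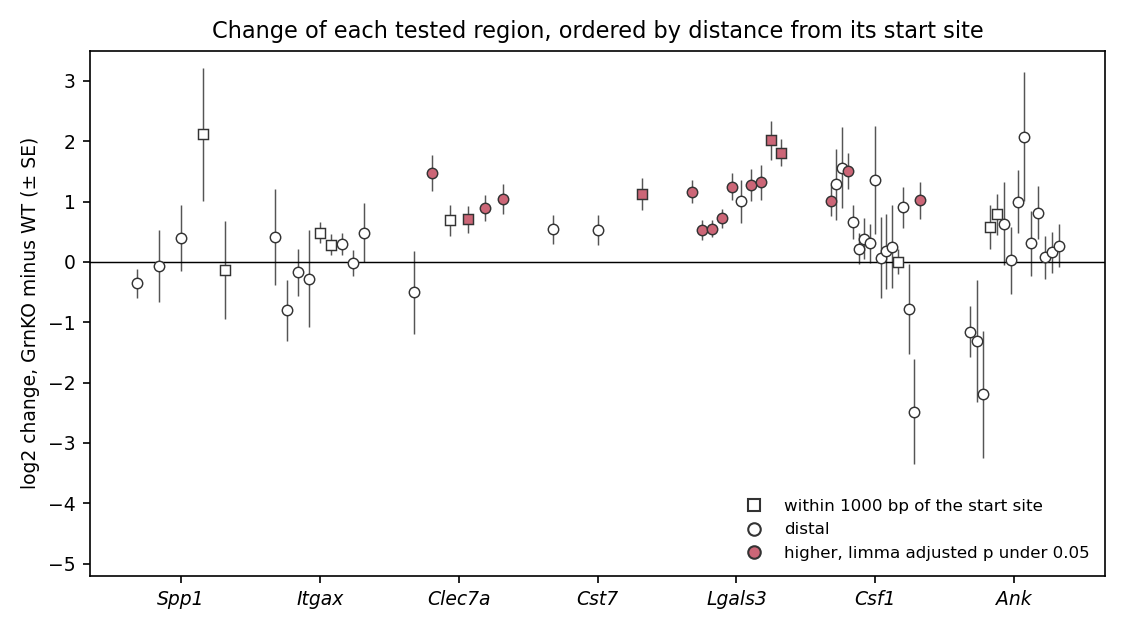
Log2 change (GrnKO minus WT, with SE) of the 64 tested regions of the 7 genes, ordered within each gene by signed distance from the nearest start site, upstream first. Squares are regions within 1000 bp of a start site, circles are distal regions, and filled symbols passed the limma test. The filled symbols are 9 in Lgals3, 4 in Clec7a, 3 in Csf1 and 1 in Cst7, and all lie above 0.

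Regions within 1000 bp of a start site (promoter-near) and the others (distal) were summed apart. Promoter-near H3K27ac was higher in GrnKO for Lgals3, Cst7 and Clec7a, and distal H3K27ac for Clec7a, Lgals3 and Csf1. In the whole table, 5.24% of promoter-near sums were called (3.58% higher, 1.66% lower), and 18.1% of distal sums (10.9% higher, 7.13% lower). Neither kind of sum was called lower in any of the 7, nor at an unadjusted p under 0.05 by limma, edgeR or DESeq2.

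Lgals3 had promoter-near sums of 65.7 and 78.3 normalised tags in WT and 251 and 286 in GrnKO, a 3.73-fold difference (log2 change 1.89 ± 0.21 SE, limma adjusted p = 6.21e-05). Its distal sums were 971 and 1120.4 in WT against 1742 and 1838 in GrnKO (log2 change 0.78 ± 0.11, limma adjusted p = 0.000524). Clec7a moved at both places, with a promoter-near log2 change of 0.71 ± 0.20 (limma adjusted p = 0.0490, and 0.0518 with edgeR) and a distal one of 1.00 ± 0.17 (0.00230). The promoter-near call of Clec7a was also lost without WT replicate 2 (limma adjusted p = 0.0562) and without GrnKO replicate 1 or 2 (0.507 or 0.168), and its distal call without GrnKO replicate 1 (0.0913).

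Cst7 changed near its promoter (log2 change 1.13 ± 0.29, limma adjusted p = 0.0299) and its distal change of 0.56 ± 0.24 was not called (0.135), with 0.97 and a limma adjusted p of 0.00123 without WT replicate 2, and 0.14 and 0.606 without WT replicate 1. The promoter-near call of Cst7 was lost without GrnKO replicate 1 or 2 (limma adjusted p = 0.196 or 0.348). Csf1 had promoter-near sums of 139.6 and 104 in WT and 126 and 116 in GrnKO. Its distal sums were 443 and 374 against 664 and 622 (log2 change 0.66 ± 0.14, limma adjusted p = 0.00722), a call that was lost without GrnKO replicate 1 or 2 (0.142 or 0.0696).

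The 3 genes without a call had promoter-near log2 changes of 0.39 ± 0.15 (Itgax), 0.80 ± 0.29 (Ank) and 0.61 ± 0.65 (Spp1), and distal ones of 0.08 ± 0.15, 0.11 ± 0.17 and -0.30 ± 0.24. Without WT replicate 2, where the spread comes from the GrnKO pair alone, the promoter-near changes of Itgax (0.44) and Ank (1.20) passed the test. Without WT replicate 1 these changes were 0.34 and 0.41.

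A test of the promoter-near minus the distal change, added after these values were seen, did not separate them for any of the 7 genes. The difference was largest in Lgals3, at 1.11 ± 0.22 (limma adjusted p = 0.258), and was -0.65 ± 0.22 in Csf1 (0.374). In this test limma called 0% of 7324 genes, with 928 at an unadjusted p under 0.05, Lgals3 and Csf1 among them.

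**Figure D4:**
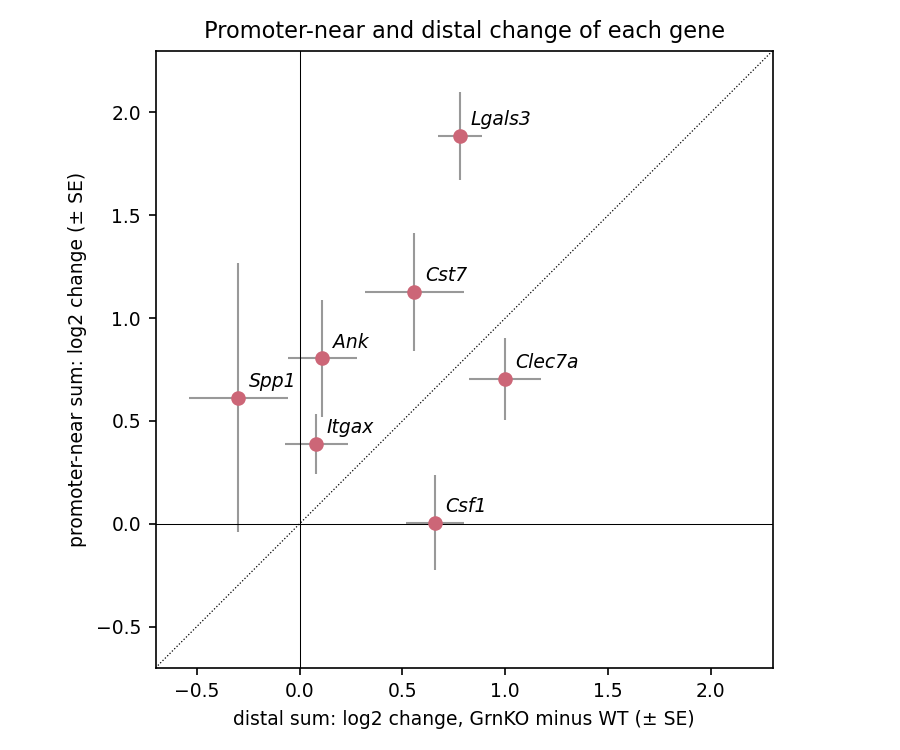
Log2 change (GrnKO minus WT, with SE) of the promoter-near sum against that of the distal sum for each of the 7 genes. The dotted line marks equal changes. Lgals3 lies above it at 1.89 against 0.78, and Csf1 below it at 0.01 against 0.66.

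The change in the 7 genes was set beside regions of other genes close by. Within 50000 bp of their start sites, 30 regions were assigned to other genes, and 22 of these were tested. None was called higher or lower by limma, edgeR or DESeq2 (6.8% and 2.92% of all regions by limma, so that few calls among 22 would be at the level of the table), and none had an unadjusted p under 0.05 by limma. Of these, 15 tested regions lay around Clec7a and belonged to Clec1a, Clec9a, Olr1 and Tmem52b, with a median log2 change of -0.27. The 2 tested regions near Lgals3 had a median of 0.34. Csf1 and Ank had no such regions.

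Other genes of the disease-associated programme gave the wider setting. The list held 37 genes, of which Mamdc2 had no region in the table. Of the other 36, 19 were higher in GrnKO and 2 were lower (8.6% and 5.88% of all genes), and 15 were not called. Their median log2 change was 0.41. The list and the 7 genes were both drawn from the known programme, and all are in the same libraries. The largest change was in Gpnmb, a lysosomal and cell-surface glycoprotein of phagocytes, with 17.6 and 15.2 normalised tags in WT and 440.1 and 388 in GrnKO. Its log2 change was 4.58 ± 0.25 (limma adjusted p = 3.07e-07), above that of any of the 7.

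The other 9 of the 10 genes with the smallest p were all higher in GrnKO. Fabp5, a fatty acid carrier, changed by 1.37 ± 0.16 on the log2 scale, and Plin2, a coat protein of lipid droplets, by 1.30 ± 0.19. The lysosomal genes Cd63, Cd68 and Ctsd, which encodes cathepsin D, changed by 1.13, 0.79 and 0.38. Igf1, a secreted growth factor, changed by 1.64 and Cxcr4, a chemokine receptor, by 1.67. Hif1a, a transcription factor of the low-oxygen response, changed by 0.82 and Apbb2 by 0.93.

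In this list, 2 genes fell. Lpl, which encodes lipoprotein lipase, had 401 and 306 normalised tags in WT and 225 and 195 in GrnKO (log2 change -0.74 ± 0.18, limma adjusted p = 0.0140). The chemokine gene Ccl6 had 1036 and 906 against 691 and 791 (log2 change -0.39 ± 0.12, limma adjusted p = 0.0488). The count of lower genes in this list was 0 in the authors' scaling, 0 without GrnKO replicate 2 and 1 without GrnKO replicate 1.

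**Figure D5:**
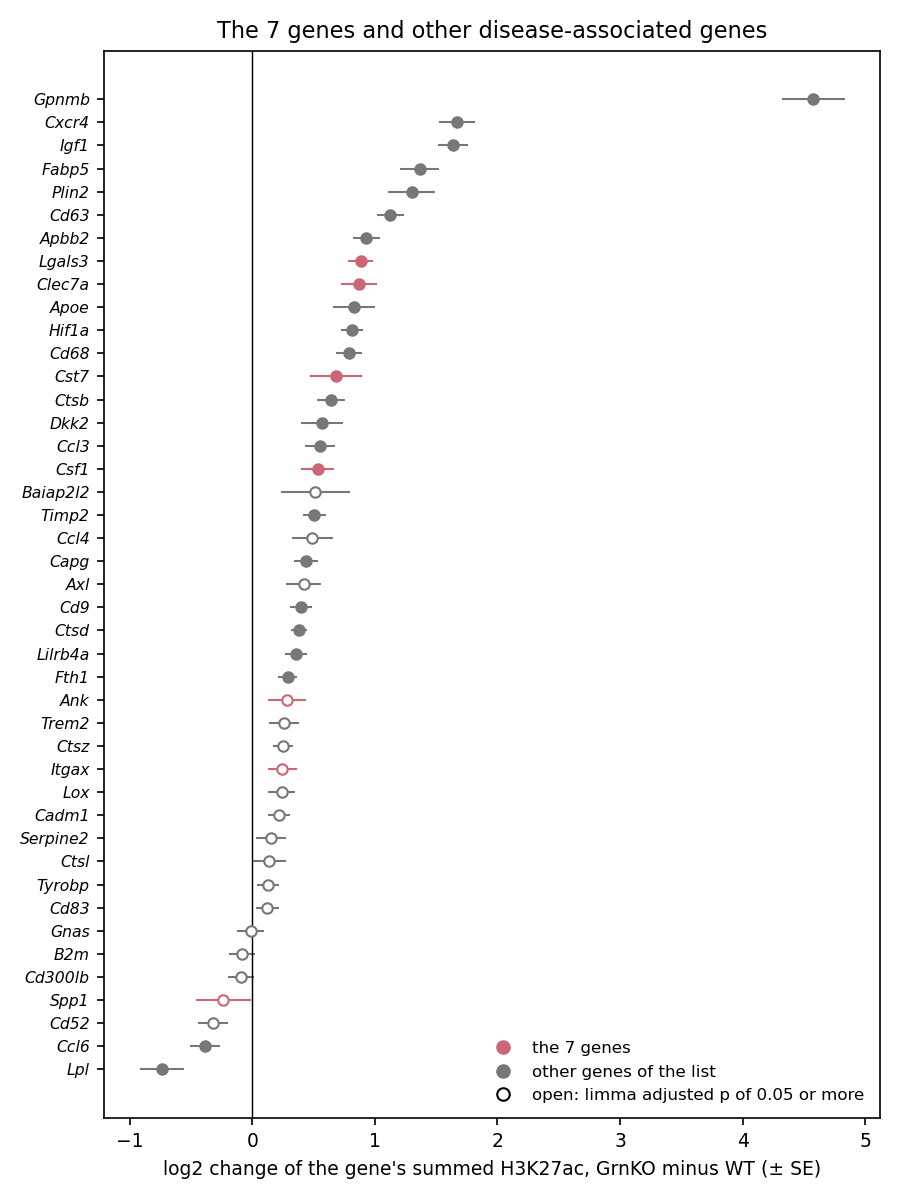
Log2 change (GrnKO minus WT, with SE) of summed H3K27ac for the 7 genes and for 36 other disease-associated genes, in order of the change. Filled points passed the limma test. Gpnmb lies at 4.58, the 4 called members between 0.53 and 0.88, and Lpl lowest at -0.74.

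Of 14 homeostatic microglial genes, 7 were lower under TMM and none was higher, against 5.88% and 8.6% of all genes. Their median log2 change was -0.21, against -0.05 over all genes. But in the authors' scaling their median was 0.01, against 0.18 over all genes. None of them was then called in either direction, against 1.08% of all genes lower and 10.6% higher. At an unadjusted p under 0.05, 1 was higher by each of limma, edgeR and DESeq2, and 9, 9 and 6 were lower, while in the authors' scaling limma gave 0 of either kind. Under TMM, Cx3cr1, the fractalkine receptor gene, and Sall1, a transcription factor of microglial identity, had log2 changes of -0.41 and -0.52. In the authors' scaling these were -0.19 and -0.29, and the genotypes overlapped. A log2 change above 0 was seen under TMM in 2 of the 14, Fcrls (0.21) and Mertk (0.03).

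The input libraries held 4078179 and 9351991 tags in WT and 14415969 and 4900176 in GrnKO, and few of them lay in the regions of the 7 genes. Of the 76 regions, 68 and 47 were at 0 in the WT inputs, and 26 and 61 in the GrnKO inputs, and the highest value was 40.2 scaled tags. Limma called no region and no gene of the table in the inputs, with 1009 regions and 103 genes at an unadjusted p under 0.05. Of the members' regions, 1 was at that level.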

How the data were processed

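H3K27ac and input ChIP-seq libraries of sorted microglial nuclei were compared between WT and GrnKO, with 2 replicates of each. The deposited table gives 8 columns of signal, which the authors scaled to 10000000 tags per library, per the file headers. Its regions are a merged list of accessibility peaks, per the file headers. Bowtie2, HOMER, DESeq2 and the build mm10 are named in the submitters' processing notes, and start sites implied by the table matched RefSeq GRCm38.p6 within 18 bp for the 7 genes. Duplicate handling is not given in the sources used here. The 7 genes and all gene lists were chosen with earlier results of these data known.

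Whole read ends were recovered from 100% of the values (tolerance 0.05 read ends), which gave the tags used by filterByExpr (minimum 10), TMM, edgeR 4.0.16 and DESeq2 1.42.0. edgeR and DESeq2 were alternatives, run on tags rounded to whole numbers. TMM gave WT factors of 0.825 and 1.04, and 1.08 for each GrnKO library. The main test was limma 3.58.1 with trend, in R 4.3.3, on log2(value + 1), with genotype as the only term and Benjamini-Hochberg adjustment over all regions or genes. Log2 changes are on that scale, which understates changes of low values. Gene values are sums over all regions with the gene name, including overlapping ones. The scripts were tested on simulated tags with a fixed dispersion and few changed features. Per region, limma recovered 0% of changes of log2 size 1 and 17.0% of those of log2 size 2, with 0 false calls. Per gene it recovered 50% and 97.9%, with 5.88% of calls false. With a replicate block, 14.9% of region calls were false, and the share was higher in fits with 3 libraries. A region that was not called is thus not shown to be unchanged. Floors cover counting error only, because the tags are reads and not labelled molecules. Inputs were fitted in the authors' scaling without TMM.

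Named were all 7 genes, and of each the region nearest the start site, that with the highest mean and that with the smallest p. Of the other disease-associated genes, the 10 with the smallest p and every lower one were named. Alternatives were the authors' scaling, edgeR, DESeq2, pseudocounts of 5 and 0.1, no filter, a replicate block, each library left out, and a threshold of 2-fold. When a library is left out, the spread comes from the complete pair of the other genotype. Calls over the whole table rose without a WT library and fell without a GrnKO library. For genes, non-overlapping regions and tested regions were also summed. Replicate numbers are shared between genotypes, but no label says that a number marks a shared origin, and deviations of same-numbered libraries had a correlation of 0.034.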

Additional observations from a re-analysis of the deposited data

How the results depend on the processing

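Each value that answers a comparison was set against each alternative, and every such pair was counted. Of these pairs, 289 held, 28 lost a call, 5 gained one, 16 counts moved by over 1.5 times and 3 changed sign. A pair held if a change kept its sign and its call, or stayed uncalled, or if a count stayed within 1.5 times. Leaving out 1 library gave 3 to 24 higher and 0 to 1 lower regions, and 2 to 4 higher genes of the 7. It gave 13 to 23 higher and 0 to 2 lower genes of the other disease-associated list. With a replicate block, 1 region was called lower, and the promoter-near change of Ank (0.80) and the distal change of Cst7 (0.56) passed the test. Named regions of Itgax (0.49, adjusted p = 0.0415) and Clec7a (0.69, adjusted p = 0.0474) passed as well. The block changed no other call of a summed value of the 7 genes.

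At 2-fold, 0 of the 7 genes were called (Clec7a 0.87, Lgals3 0.88, Cst7 0.68, Csf1 0.53), nor did the promoter-near change of Clec7a (0.71) and the distal changes of Clec7a (1.00), Lgals3 (0.78) and Csf1 (0.66). In the other list, 6 were then higher and 0 lower. The count of lower genes there was 0 in the authors' scaling and 1 with edgeR, DESeq2, a pseudocount of 0.1 or no filter. The summed change of Cst7 lost its call with edgeR (0.63), a pseudocount of 0.1 (0.68), no filter (0.68) and tested regions only (0.67). The promoter-near change of Clec7a lost it with edgeR (0.71), a pseudocount of 0.1 (0.71) and no filter (0.71). For these values the cause was not tested.

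Without 1 library the summed log2 changes ranged from 0.31 to 1.06 in Cst7, 0.39 to 0.67 in Csf1 and -0.46 to -0.016 in Spp1 (-0.014 in the authors' scaling). The promoter-near changes ranged from 0.28 to 0.95 in Spp1, 0.34 to 0.44 in Itgax, 0.52 to 0.89 in Clec7a, 0.93 to 1.32 in Cst7, -0.20 to 0.21 in Csf1 and 0.41 to 1.20 in Ank. The distal ones ranged from 0.88 to 1.12 in Clec7a, 0.14 to 0.97 in Cst7, 0.54 to 0.78 in Csf1 and -0.55 to -0.044 in Spp1. The promoter-near change of Csf1 changed sign with edgeR (-0.00093), without WT replicate 2 (-0.20) and without GrnKO replicate 1 (-0.056). Its start site region did so with DESeq2 (-0.0065) and without these libraries (-0.20 and -0.056). The Spp1 start site region changed sign in the authors' scaling (0.070), without WT replicate 1 (0.52) and without GrnKO replicate 2 (0.19), in a range from -0.79 to 0.52 without 1 library. The Spp1 start sites had levels near the floor, with 2 libraries per genotype. Whether changes of that size could be detected there was not tested.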

Other observations

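Outside the 7 genes, those with the most similar profile over the 4 libraries were Ftl1, Snhg1, Dpp6, Maz and Nmi. Likeness was the Euclidean distance between a gene's centred log2 values and the mean profile of the 7 genes, over 4 libraries, and ranged from 0.0069 for Ftl1 to 0.027 for Nmi. Ftl1, which encodes the ferritin light chain, had 743 and 828 normalised tags in WT and 1108 and 1058 in GrnKO (log2 change 0.46 ± 0.11, limma adjusted p = 0.0136). With 4 libraries many genes lie close to any such profile.

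The neutrophil gene S100a8 had 0 and 5.24 normalised tags in WT and 20.4 and 18.7 in GrnKO (log2 change 3.04, limma adjusted p = 0.0484), and S100a9 was at 0 in 3 of the 4 libraries. Ms4a1, listed as a B cell marker, had 219 and 198 normalised tags in WT and 609 and 463 in GrnKO (log2 change 1.35, limma adjusted p = 0.000174). Both genes were singled out after their values were seen.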
